A study of Canis lupus familiaris with 12 samples.

Results

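EPAS1 and 7 further genes of cellular oxygen sensing (HIF1A, ARNT, VHL, EGLN1, EGLN2, EGLN3, and HIF1AN) were examined by RNASeq in MDCKII, a canine kidney epithelial line, with and without the junctional proteins cingulin (CGN) and paracingulin (CGNL1). EPAS1 was chosen by its CPM in CGN-KO against WT cells, where it rose, and the other genes were listed for their function. Of the 8 genes, 7 were matched by symbol among the 13672 genes of the table, and all 7 were among the 12650 genes tested, whereas ARNT is not analysed here. The groups were untreated WT, CGN-KO (clone 1G8), CGNL1-KO (clone 22), and CGN/CGNL1 double-KO cells (clone 21D3), with 3 libraries each and 12 in all. The KO cells were made by CRISPR/Cas9 editing, and each KO genotype was 1 line, so an effect of the genotype and a property of that line cannot be told apart. Nothing says whether the 3 libraries of a genotype came from separate cultures, so the p-values measure the spread between these libraries, which may be technical.

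EPAS1 encodes HIF-2 alpha and HIF1A encodes HIF-1 alpha, the oxygen-regulated subunits of the hypoxia-inducible factors (HIFs), which bind DNA as dimers with the product of ARNT. When oxygen is present, the prolyl hydroxylases EGLN1, EGLN2, and EGLN3 mark the alpha subunits for the ubiquitin ligase that contains VHL, and the asparaginyl hydroxylase HIF1AN limits their activity. Because the alpha subunits are controlled largely as proteins, the mRNA levels given here are not levels of HIF protein or HIF activity. In the kidney, HIF-2 alpha is best known from endothelial and interstitial cells, and VHL from renal cell carcinoma.

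Levels are given in CPM, the deposited counts per 1000000 reads, and read numbers were recovered from them. Recovered reads per library ranged from 16837532 to 30086076. CGN was lower in the CGN-KO and double-KO libraries (39.7 to 56.5 CPM) than in the others (198 to 233 CPM), and CGNL1 was lower in the CGNL1-KO and double-KO libraries (1.11 to 3.02 CPM) than in the others (5.04 to 12.3 CPM), as labelled. CGNL1 was also lower in CGN-KO (5.04 to 6.92 CPM) than in WT libraries (7.74 to 12.3 CPM). In this contrast, 17.5% of all genes were lower without overlap. All 9 kidney epithelial markers were matched, with a sum between 5354 and 5744 CPM in every library, although CDH16, the kidney cadherin, was low (0.828 to 5.14 CPM). Of the 7 endothelial markers, KDR was at 0.0969 to 2.41 CPM and FLT1 at 167 to 222 CPM. CD68, the matched gene of 5 leukocyte markers, was at 0.560 to 1.34 CPM, and the other endothelial and leukocyte markers and the 6 fibroblast markers are not analysed here. Several kidney markers differed between the genotypes, and in CGN-KO against WT cells the mean of CLDN2 was 26.4 against 9.33 CPM (adjusted p = 0.00897) and that of CDH16 was 3.43 against 1.45 CPM (adjusted p = 0.0245), whereas PAX2 was at 21.3 against 30.2 CPM (adjusted p = 0.00177) and KRT18 at 1283 against 1632 CPM (adjusted p = 0.00284). Among the CGN-KO libraries, CLDN2 was at 43.1 CPM in replicate 1 against 15.6 and 20.5 CPM in replicates 2 and 3. CDH16 was at 5.14 CPM against 2.32 and 2.83 CPM in the same order. KDR was at a mean of 0.208 CPM in double-KO against 1.36 CPM in WT cells (adjusted p = 0.000113). The part of these markers in the results was not tested. Replicate 1 stood apart from the other CGN-KO libraries, with a chi-square per gene of 12.8 and 22.4 against 3.17 between the other 2. Among the CGNL1-KO libraries, replicates 1 and 2 were the least alike (19.8), and replicate 3 gave 8.27 with replicate 1 and 10.2 with replicate 2, so replicate 2 lay the farther from replicate 3.

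EPAS1, the gene chosen for its rise, was at 10.5, 9.72, and 10.8 CPM in WT replicates 1, 2, and 3. It was at 60.5, 74.8, and 68.0 CPM in the CGN-KO replicates. The CGNL1-KO replicates had 38.3, 34.1, and 37.2 CPM. In double-KO cells it was at 48.1 CPM in the library whose column carries no number, 49.1 CPM in replicate 2, and 61.3 CPM in replicate 3. All 9 KO libraries lay above all 3 WT libraries. Line by line, 18.4% (CGN-KO), 13.3% (CGNL1-KO), and 23.2% (double-KO) of all genes were higher than WT without overlap. In CGN-KO cells this separation comes from the values that chose EPAS1. The order of the genotypes was WT, CGNL1-KO, double-KO, CGN-KO. Neighbours in this order did not overlap except double-KO and CGN-KO cells, whose highest and lowest values were 61.3 and 60.5 CPM. The double-KO mean (52.8 ± 7.39 CPM, SD, n = 3) therefore lay between those of the single KO lines, 36.5 ± 2.17 CPM in CGNL1-KO and 67.8 ± 7.14 CPM in CGN-KO cells, and all were above the 10.4 ± 0.568 CPM of WT cells. In bulk RNA, more cells that express a gene and more RNA per cell cannot be told apart. These values rest on 176 to 226 reads in WT, 1151 to 1836 in CGN-KO, 659 to 755 in CGNL1-KO, and 863 to 1511 in double-KO libraries.

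CGN-KO cells had a mean CPM of 6.54 times that of WT, CGNL1-KO cells 3.53 times, and double-KO cells 5.10 times. On the scale of log2(CPM + 1), which was used for all tests and which understates changes of low genes, the differences were 2.59, 1.72, and 2.24 (SE 0.0946 each). EPAS1 was the 3rd highest of the 12650 genes by this difference in CGN-KO and the 4th highest in the other lines. These contrasts share WT or CGN-KO libraries with the one that chose EPAS1, so they are descriptions without a test. Double-KO and CGNL1-KO cells share no library with that contrast, and there EPAS1 was higher in double-KO cells by 0.51 on the log2 scale (SE 0.0946, adjusted p = 0.00174, higher in 3 of 3 libraries). Only the difference is free of the libraries that chose EPAS1. The SE and adjusted p use the spread within all genotypes, WT and CGN-KO included. Of all genes, 16.6% were higher without overlap in double-KO than in CGNL1-KO cells. The EPAS1 difference ranged from 0.40 to 0.58 over the alternative settings and libraries left out, with an adjusted p of at most 0.0121. A fit of these 2 genotypes alone was among the settings.

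**Figure D1:**
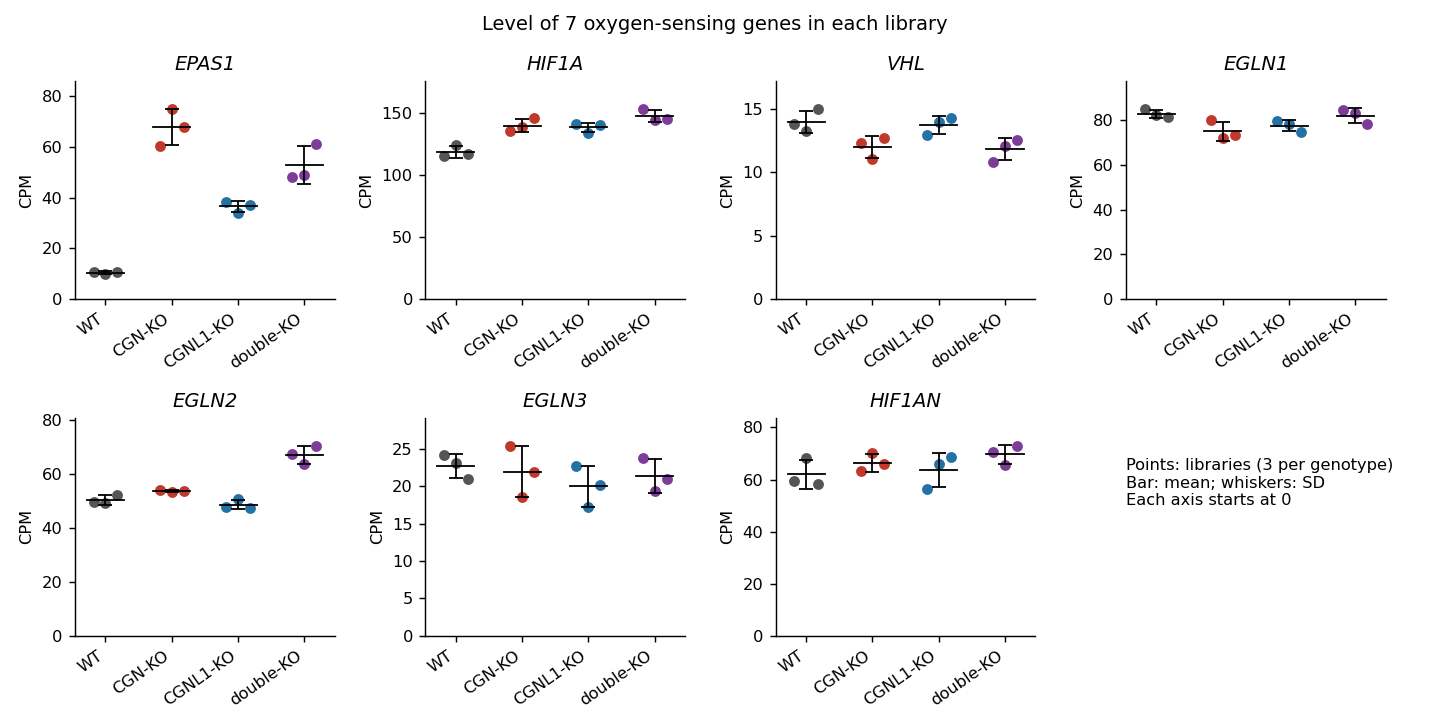
Level in CPM of the 7 matched oxygen-sensing genes in the 3 libraries of each genotype, with 1 panel per gene. Points are libraries, horizontal bars are means, whiskers are SD, and every axis starts at 0. The 9 KO libraries of EPAS1 lie between 34.1 and 74.8 CPM, above the WT libraries at 9.72 to 10.8 CPM.

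HIF1A, which encodes the paralog of the EPAS1 product, was at 115, 124, and 117 CPM in WT cells. The CGN-KO replicates had 135, 138, and 145 CPM, the CGNL1-KO replicates 141, 134, and 140 CPM, and the double-KO libraries 153, 144, and 145 CPM. All KO libraries lay above the WT libraries, as they did for 18.4% (CGN-KO), 13.3% (CGNL1-KO), and 23.2% (double-KO) of all genes, line by line, while the KO genotypes overlapped between neighbours in the order of means. Against WT, HIF1A rose on the log2 scale by 0.23 (CGN-KO, SE 0.0513, adjusted p = 0.00428), 0.22 (CGNL1-KO, adjusted p = 0.0110), and 0.31 (double-KO, adjusted p = 0.000340), and it differed among the 4 genotypes (F test, adjusted p = 0.00139, a call made for 29.9% of genes). The call in CGNL1-KO cells was lost when CGNL1-KO replicate 3 was left out (adjusted p = 0.0502) and when only these 2 genotypes entered the fit (adjusted p = 0.0527). The change of HIF1A was small beside that of EPAS1, and the EPAS1 to HIF1A ratio of CPM was 0.0875 ± 0.00798 in WT (SD, n = 3), 0.264 ± 0.00865 in CGNL1-KO, 0.360 ± 0.0572 in double-KO, and 0.485 ± 0.0488 in CGN-KO cells. This ratio was not divided by transcript length and serves to compare genotypes, not genes.

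EGLN2, a prolyl hydroxylase, was at 49.8, 49.1, and 52.4 CPM in WT cells and at 67.6, 63.6, and 70.4 CPM in double-KO cells. The single KO lines were close to WT, with 53.5 to 54.0 CPM in CGN-KO and 47.6 to 50.6 CPM in CGNL1-KO libraries. The double-KO libraries were thus above all others. Of all genes, 23.2% were higher without overlap in double-KO than in WT cells, 15.5% than in CGN-KO cells, and 16.6% than in CGNL1-KO cells. EGLN2 rose by 0.41 on the log2 scale in double-KO against WT cells (SE 0.0562, adjusted p = 6.35e-05), and it was also higher than in CGN-KO (0.32, adjusted p = 0.00235) and CGNL1-KO cells (0.46, adjusted p = 5.38e-05). The differences of 0.09 in CGN-KO and −0.05 in CGNL1-KO against WT cells did not pass (adjusted p = 0.292 and 0.671). Of the 688 genes tested on the chromosome of EGLN2, 78.2% were above 0 in double-KO against WT cells, with a median of 0.20 and 114 genes above EGLN2, whereas the median of all genes was −0.00036. With the chromosome medians subtracted, EGLN2 was higher by 0.21 against WT (adjusted p = 0.0109), by 0.26 against CGNL1-KO (adjusted p = 0.00531), and by 0.13 against CGN-KO cells (adjusted p = 0.206), so this last call was lost.

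EGLN1, the main prolyl hydroxylase for HIF in most cells, was at 84.9, 82.2, and 81.5 CPM in WT and 80.0, 72.0, and 73.5 CPM in CGN-KO cells. The values did not overlap, as was so for 17.5% of all genes in this direction, and the difference of −0.14 did not pass (adjusted p = 0.0899). It passed without CGN-KO replicate 1, at −0.19 (adjusted p = 0.0404). In CGNL1-KO cells EGLN1 was at 74.8 to 79.7 CPM, also below all WT libraries (−0.09, adjusted p = 0.363, with 11.1% of all genes lower without overlap), and in double-KO cells at 78.4 to 84.8 CPM (−0.01, adjusted p = 0.881). EGLN3, often counted among the genes that HIFs induce, was at 20.9 to 24.2 CPM in WT, 18.5 to 25.4 CPM in CGN-KO, 17.2 to 22.6 CPM in CGNL1-KO, and 19.3 to 23.7 CPM in double-KO libraries. All genotypes overlapped for EGLN3, and no difference from WT passed (−0.06, −0.18, and −0.09, adjusted p = 0.766, 0.395, and 0.621).

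VHL, the substrate-recognition subunit of the ubiquitin ligase, was at 13.8, 13.2, and 15.0 CPM in WT cells. It was lower without overlap in CGN-KO cells at 12.3, 11.1, and 12.7 CPM and in double-KO cells at 10.8, 12.1, and 12.5 CPM, but not in CGNL1-KO cells at 12.9, 13.9, and 14.3 CPM. Of all genes, 17.5% in CGN-KO and 21.8% in double-KO cells were lower without overlap. The differences of VHL from WT in CGN-KO, double-KO, and then CGNL1-KO cells were −0.20, −0.23, and −0.03 (SE 0.0875, adjusted p = 0.115, 0.0670, and 0.901 in this order). With the chromosome medians subtracted, the first and the second passed (adjusted p = 0.0484 and 0.0410). HIF1AN was at 58.2 to 68.4 CPM in WT, 63.1 to 70.1 CPM in CGN-KO, 56.4 to 68.6 CPM in CGNL1-KO, and 65.5 to 72.8 CPM in double-KO libraries, and its differences of 0.10, 0.03, and 0.17 did not pass (adjusted p = 0.422, 0.856, and 0.134).

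Of the 6 genes tested against WT (EPAS1 excepted), CGN-KO cells had 1 that rose, CGNL1-KO cells 1, and double-KO cells 2, and none fell at this threshold. Over all genes, 19.0%, 10.3%, and 26.3% were called in these contrasts, of which 11.2%, 6.81%, and 14.8% of all genes rose and 7.87%, 3.49%, and 11.5% fell. Without replicate 1 of CGN-KO and replicate 1 of CGNL1-KO cells, 2, 1, and 3 genes were called, as EGLN1 and HIF1AN then passed in the first and the third contrast, and without replicate 1 of CGN-KO and replicate 2 of CGNL1-KO cells 2, 1, and 2 were called, as EGLN1 passed. With 6 genes, no share can be read closely against those of all genes. The median differences of these 6 genes were 0.02, −0.04, and 0.08 in the same order, against −0.0039, −0.0031, and −0.00036 for all genes. Between CGN-KO and CGNL1-KO cells limma called 0 of 6, where 5.19% of all genes were called (656 genes, or 1152 with the replicate number as a block), and edgeR and DESeq2 also called 0, with EGLN2 at an unadjusted p below 0.05 in each tool. Double-KO differed from CGN-KO cells in 1 of 6 genes (EGLN2, with 8.84% of all genes called) and from CGNL1-KO cells in 2 of 7 (EPAS1 and EGLN2, with 14.4% of all genes called).

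**Figure D2:**
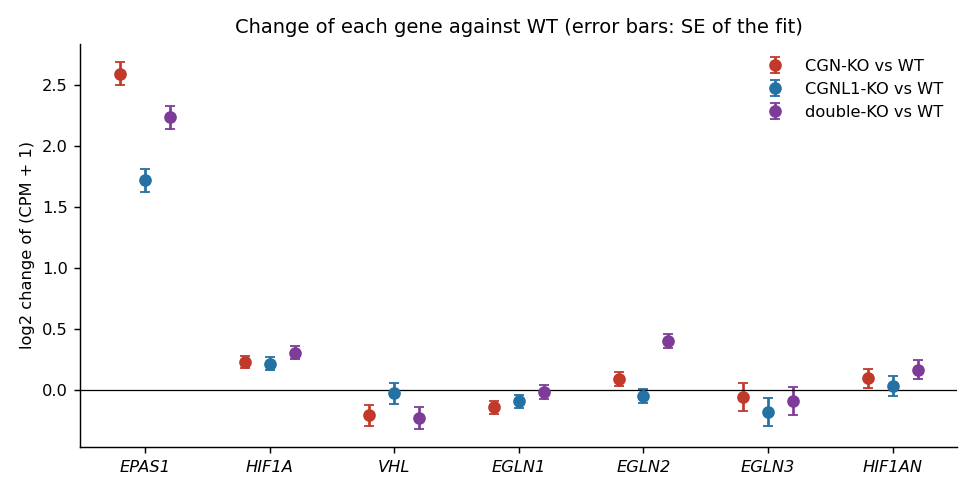
Difference from WT on the scale of log2(CPM + 1) for the 7 genes in CGN-KO, CGNL1-KO, and double-KO cells, with bars for the SE of the fit. EPAS1 lies at 1.72 to 2.59 in the 3 lines, and the other genes lie between −0.23 and 0.41.

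Genes around the pathway were grouped into partners and relatives of the factors (20 tested), targets shared by HIF-1 and HIF-2 (20), targets credited mainly to HIF-1 (15), and targets credited mainly to HIF-2 (8). Of these 63 genes, 15 rose and 4 fell in CGN-KO, 12 rose and 1 fell in CGNL1-KO, and 13 rose and 7 fell in double-KO cells. The called shares were 30.2%, 20.6%, and 31.7%, read against the 19.0%, 10.3%, and 26.3% of all genes given above, and the medians were 0.07, 0.09, and 0.01. Without replicate 1 of CGN-KO and replicate 1 of CGNL1-KO cells, 21, 20, and 26 genes were called, and without replicate 1 of CGN-KO and replicate 2 of CGNL1-KO cells 19, 16, and 24. In CGNL1-KO cells the count of 13 fell to 7 without WT replicate 2 and to 8 without WT replicate 3. Genes that rose in all 3 lines were ARNT2, P4HA2, ANGPTL4, CA12, PFKFB3, PLIN2, and CYBRD1 (7 genes), none fell in all 3, and 36 were called in none. Changes of at least 2-fold were called for 1.31%, 0.617%, and 1.41% of all genes, and among the 63 genes for CA12 in CGNL1-KO cells. In double-KO cells CXCR4, at −0.94 on this scale, also passed 2-fold with a pseudocount of 0.5 (−1.19), edgeR (−1.71), or DESeq2 (−1.72), and with both of these tools CA9 (1.11 in each) and STC2 (−1.01 and −1.02) passed as well.

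**Figure D3:**
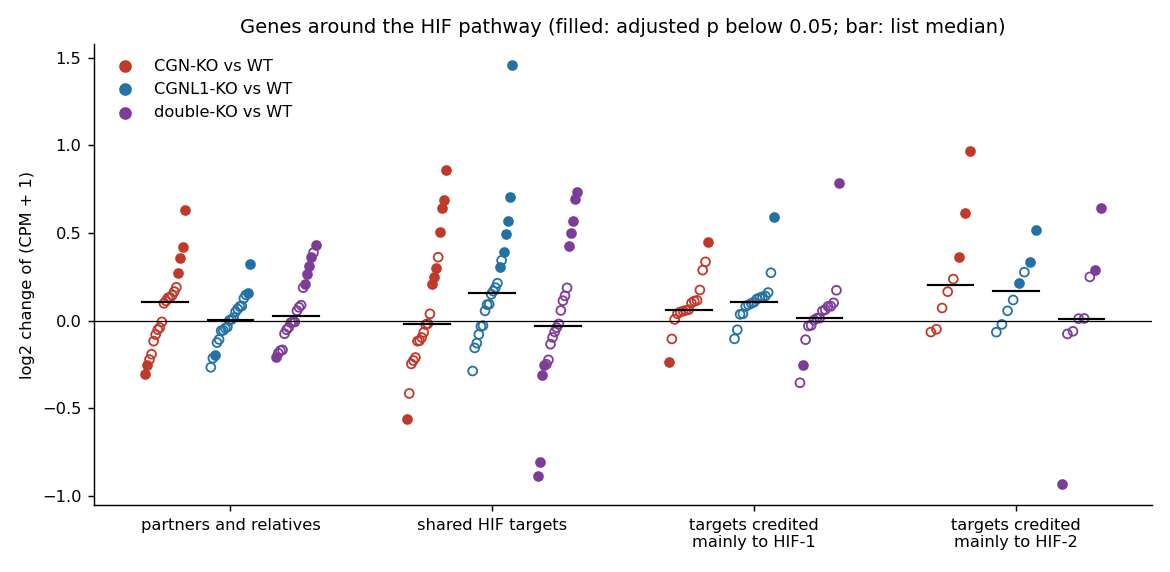
Difference from WT on the scale of log2(CPM + 1) for the genes of 4 lists around the HIF pathway, with 1 column per KO line. Filled points passed an adjusted p of 0.05, open points did not, and bars are list medians. CA12 in CGNL1-KO cells is the highest point, at 1.46, and CXCR4 in double-KO cells is the lowest, at −0.94.

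Among the partners and relatives, 4 rose and 2 fell in CGN-KO, 2 rose and 1 fell in CGNL1-KO, and 5 rose and 1 fell in double-KO cells, with medians of 0.11, 0.0035, and 0.02. The called shares were 30%, 15%, and 30%, against 19.0%, 10.3%, and 26.3% of all genes. ARNT2, a paralog of ARNT and alternative dimer partner, was at 34.4 to 37.5 CPM in WT, 50.9 to 62.2 CPM in CGN-KO, 42.2 to 52.7 CPM in CGNL1-KO, and 47.5 to 50.6 CPM in double-KO libraries. It rose by 0.63 (adjusted p = 7.30e-05), 0.32 (adjusted p = 0.0250), and 0.43 (adjusted p = 0.00160), although the call in CGNL1-KO cells was lost without WT replicate 2 (adjusted p = 0.114), WT replicate 3 (0.0506), or CGNL1-KO replicate 1 (0.0885). AHR, the related aryl hydrocarbon receptor, rose by 0.42 in CGN-KO and 0.36 in double-KO cells (adjusted p = 0.000476 and 0.00125). CUL2, the cullin scaffold of the VHL ligase, fell by 0.25 on the log2 scale in CGN-KO and by 0.21 in double-KO cells (adjusted p = 0.00935 and 0.0205), with both calls lost without WT replicate 2 (adjusted p = 0.0542 and 0.0903) and the second also without WT replicate 3, the unnumbered double-KO library, or double-KO replicate 3. SIM2, a transcription factor of the same structural family, fell by 0.30 in CGN-KO cells (adjusted p = 0.0181, lost without WT replicate 1 or CGN-KO replicate 3). In CGNL1-KO cells OS9 rose by 0.16 and the coactivator CREBBP fell by 0.20 (adjusted p = 0.0428 and 0.0407), but each rested on most libraries. The OS9 call was lost without any 1 library other than CGN-KO replicate 1, CGNL1-KO replicate 1, or double-KO replicate 3, and the CREBBP call without any 1 library other than WT replicate 2 or CGN-KO replicate 1 (adjusted p up to 0.139 and 0.155).

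Among the shared targets, 7 rose and 1 fell in CGN-KO, 6 rose and 0 fell in CGNL1-KO, and 5 rose and 4 fell in double-KO cells, with medians of −0.02, 0.16, and −0.03. The called shares were 40%, 30%, and 45%, against 19.0%, 10.3%, and 26.3% of all genes. The count of 8 in CGN-KO cells was 5 without WT replicate 3 or CGN-KO replicate 2, and the count of 6 in CGNL1-KO cells was 10 without replicate 1 of CGN-KO and replicate 2 of CGNL1-KO cells. CA12, a membrane carbonic anhydrase, was at 40.7 to 47.2 CPM in WT, 74.1 to 89.6 CPM in CGN-KO, 99.6 to 147 CPM in CGNL1-KO, and 65.2 to 75.5 CPM in double-KO libraries. It rose by 0.86, 1.46, and 0.69 (adjusted p = 4.34e-05, 2.92e-07, and 0.000249), with no overlap between WT and any KO line. Of all genes, 18.4%, 13.3%, and 23.2% were higher without overlap in these lines. CA12 was highest in CGNL1-KO cells, where EPAS1 was lowest of the 3 KO lines, and the CA12 difference between CGN-KO and CGNL1-KO cells passed (−0.60, adjusted p = 0.00359). ANGPTL4, a secreted inhibitor of lipoprotein lipase, rose by 0.69 in CGN-KO and 0.73 in double-KO cells, and PFKFB3, a regulator of glycolysis, by 0.70 in CGNL1-KO cells (adjusted p = 0.000673, 0.000285, and 1.48e-05). STC2, which encodes the secreted glycoprotein stanniocalcin, was at 9.22 to 12.1 CPM in WT, 6.17 to 7.74 CPM in CGN-KO, and 5.28 to 5.69 CPM in double-KO libraries, and it fell by 0.56 and 0.89 (adjusted p = 0.00803 and 0.000156). DDIT4, an inhibitor of mTOR signalling, fell by 0.80 in double-KO cells (adjusted p = 0.0240). That call was lost with DESeq2 (adjusted p = 0.0622) and without WT replicate 1, WT replicate 2, double-KO replicate 2, or double-KO replicate 3 (adjusted p up to 0.0896), and 1 CGNL1-KO library, replicate 1, had 67.7 CPM against 25.5 and 32.3 CPM in the others. Double-KO against CGNL1-KO cells had 8 of the 20 shared targets lower and 0 higher, where 14.4% of all genes were called in either direction. The count of called targets was 4 to 9 when single libraries were left out, with 4 without the unnumbered double-KO library or double-KO replicate 2.

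Among the targets credited mainly to HIF-1, mostly glycolytic genes, 1 rose and 1 fell in CGN-KO, 1 rose and 0 fell in CGNL1-KO, and 1 rose and 1 fell in double-KO cells, with medians of 0.06, 0.11, and 0.01. The called shares of 13.3%, 6.67%, and 13.3% were below the 19.0%, 10.3%, and 26.3% of all genes. LDHA, a subunit of lactate dehydrogenase, was at 1597 to 1655 CPM in WT, 1336 to 1439 CPM in CGN-KO, and 1328 to 1419 CPM in double-KO libraries, and fell by 0.24 and 0.25 (adjusted p = 0.010 and 0.00484). SLC16A3, a lactate exporter, rose in both single KO lines, CGN-KO by 0.45 and CGNL1-KO by 0.59 (adjusted p = 0.0396 and 0.0138). The call in CGN-KO cells was lost without WT replicate 1 or 2, CGN-KO replicate 1 or 2, CGNL1-KO replicate 3, or any of the double-KO libraries (adjusted p up to 0.179). That in CGNL1-KO cells was lost without WT replicate 2 (adjusted p = 0.0829). CA9, a carbonic anhydrase widely used as a marker of hypoxia, was at 0.943 to 1.77 CPM in WT and 3.0 to 3.24 CPM in double-KO libraries, a rise of 0.78 (adjusted p = 0.00116), while the 0.34 and 0.27 in CGN-KO and CGNL1-KO cells did not pass (adjusted p = 0.137 and 0.312).

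Among the targets credited mainly to HIF-2, 3 of 8 rose and 0 fell in CGN-KO, 3 rose and 0 fell in CGNL1-KO, and 2 rose and 1 fell in double-KO cells, with medians of 0.20, 0.17, and 0.01. The called share was 37.5% in each line, against 19.0%, 10.3%, and 26.3% of all genes. With 8 genes, these shares cannot be read closely. CYBRD1, a ferric reductase of iron uptake, had 39.7 to 45.0 CPM in WT, 72.7 to 92.0 CPM in CGN-KO, 46.4 to 59.4 CPM in CGNL1-KO, and 63.2 to 68.1 CPM in double-KO libraries, and it rose by 0.97, 0.33, and 0.64 (adjusted p = 1.44e-06, 0.0263, and 7.71e-05). The call of CYBRD1 in CGNL1-KO cells was lost without WT replicate 2 or 3 or CGNL1-KO replicate 1 or 3 (adjusted p up to 0.102), and when only these 2 genotypes entered the fit (adjusted p = 0.0563). CYBRD1 thus had the same order of genotype means as EPAS1, as did PLIN2, ARNT2, AHR, and the kidney markers CLDN2, CDH16, and EPCAM. In the lists, SIAH2, ELOB, and GAPDH also had this order, and ELOB and GAPDH passed in no KO line against WT. The share of all genes with this order was not counted. PLIN2, a protein that coats lipid droplets, was at 113 to 127 CPM in WT and 142 to 148 CPM in double-KO libraries and rose by 0.29 (adjusted p = 0.00172). MMP14, a membrane-bound matrix metalloproteinase, rose in the single KO lines, by 0.61 in CGN-KO cells (adjusted p = 0.000484) and 0.52 in CGNL1-KO cells (adjusted p = 0.00325), and was at 13.0 to 14.2 CPM in double-KO against 12.6 to 14.4 CPM in WT libraries. CXCR4, a chemokine receptor, was near the detection filter at 1.55 to 2.72 CPM in WT and 0.581 to 0.853 CPM in double-KO libraries, and fell by 0.94 (adjusted p = 0.000724).

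The 10 genes nearest to EPAS1 in the RefSeq gene order, 5 on each side, were taken among the genes with values here. Genes without values were skipped. Of these 10, 9 are given as a description of its position, and 8 of them were tested. Their differences from WT ranged from −0.20 to 0.16 in CGN-KO, −0.22 to 0.11 in CGNL1-KO, and −0.13 to 0.16 in double-KO cells. PRKCE, which encodes protein kinase C epsilon and is the next gene with values on one side, had 10.03 CPM in WT and 9.35 CPM in CGN-KO cells (−0.09, adjusted p = 0.545). The 449 genes tested on the chromosome of EPAS1 had medians between −0.02 and −0.0051, and 1 of them was above EPAS1 in each line.

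**Figure D4:**
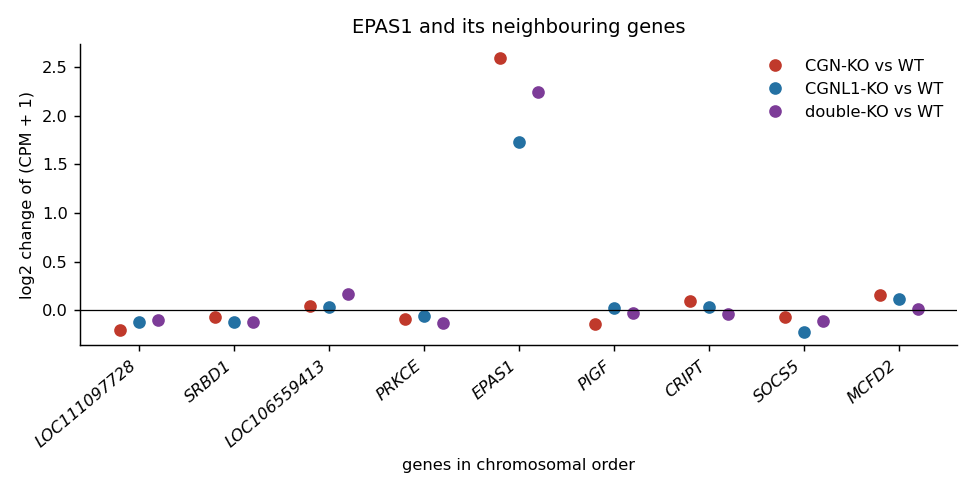
Difference from WT on the scale of log2(CPM + 1) for EPAS1 and the tested genes that flank it, in chromosomal order without distances, in the 3 KO lines. EPAS1 is at 1.72 to 2.59, and the 8 tested neighbours shown are between −0.22 and 0.16.

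The genes whose levels were most like those of EPAS1 over the 12 libraries, by Pearson's r of log2(CPM + 1), were GPR153 (r = 0.991), SLC6A12 (0.990), ACKR3 (0.987), DBN1 (0.984), and SIRT5 (0.984). The 12 libraries fall into 4 genotypes and share their lines, so r is a description. ACKR3, an atypical chemokine receptor, had the highest Spearman's rho of all genes (0.993) and an r of 0.788 with EPAS1 on the deviations from the genotype means. On these deviations r was 0.718 for DBN1, 0.587 for SIRT5, 0.352 for SLC6A12, and 0.300 for GPR153. ACKR3 went from 7.80 ± 1.18 CPM in WT to 33.7 ± 2.33 in CGNL1-KO, 80.1 ± 9.01 in double-KO, and 117 ± 8.56 CPM in CGN-KO cells (SD, n = 3). SLC6A12, a transporter of the osmolyte betaine, went from 16.3 ± 1.88 to 38.3 ± 3.32, 50.3 ± 1.66, and 61.2 ± 4.32 CPM in the same order. GPR153, an orphan receptor, DBN1, which encodes the actin-binding protein drebrin, and SIRT5, a mitochondrial deacylase, changed less, from 20.9 to 31.0 CPM, 95.5 to 170 CPM, and 67.0 to 88.2 CPM between WT and CGN-KO cells. The genes most opposite to EPAS1 were ADAMTS9 (r = −0.986), SH3D19 (−0.983), MMD (−0.975), ATRNL1 (−0.967), and PRRG4 (−0.963). ADAMTS9, a secreted metalloproteinase, was at 61.1 ± 2.40 CPM in WT and 34.7 ± 1.87 CPM in CGN-KO cells, whereas PRRG4 had genotype means of 0.0659 to 1.53 CPM. Among the other oxygen-sensing genes, r with EPAS1 was 0.870 for HIF1A, −0.658 for VHL, and −0.559 for EGLN1. It was 0.454 for HIF1AN, 0.453 for EGLN2, and −0.230 for EGLN3. On the deviations from the genotype means, r was −0.08 for HIF1A, 0.15 for VHL, and −0.741 for EGLN1. For HIF1AN, EGLN2, and EGLN3 it was 0.0891, 0.317, and −0.275.

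**Figure D5:**
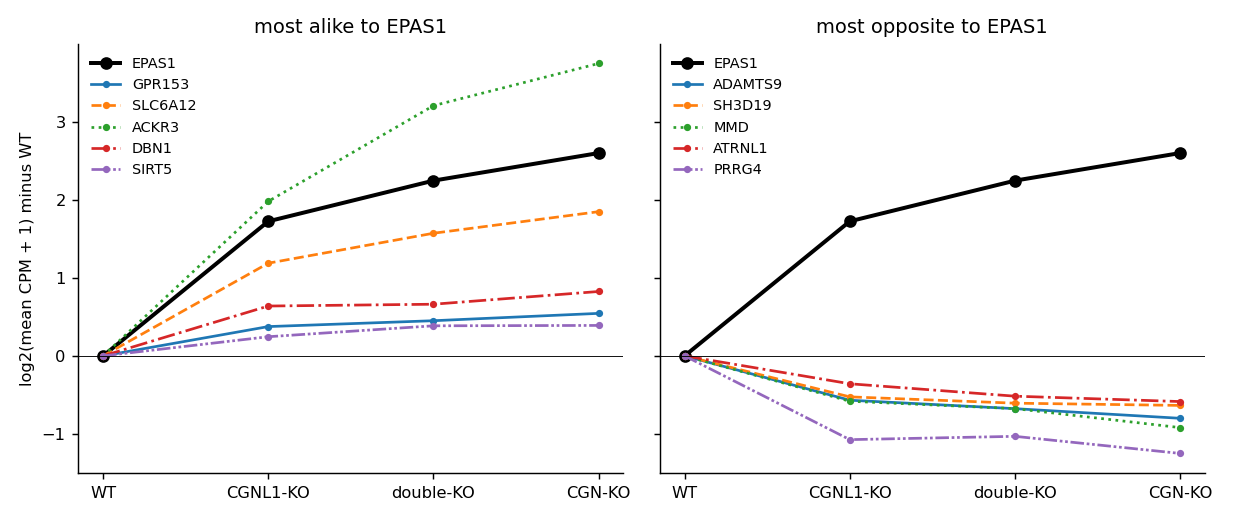
Mean level of EPAS1 and of the 5 genes most like it (left) and most opposite to it (right), as log2(mean CPM + 1) minus the WT value, with the genotypes in the order of EPAS1. ACKR3 lies above EPAS1 in all 3 KO lines, and GPR153, DBN1, and SIRT5 have the same direction at a smaller size.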

How the data were processed

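RNASeq was performed by the authors on 12 libraries of MDCKII cells. Per the labels and methods, they prepared stranded mRNA libraries, aligned the reads with STAR 2.7.0f to the dog genome CanFam 3.1, counted them per gene with HTSeq 0.9.1, and normalized and filtered them with edgeR. The annotation release and the strand setting of the counting are not given in the sources used here. The deposited values are a signal in CPM for 13672 genes, computed with library totals times a scaling factor. All values (100%) were whole multiples of 1 read (tolerance 0.001), so read counts were recovered, at 16837532 to 30086076 reads per library. Of the double-KO columns, 1 carries no replicate number and is called unnumbered.

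Genes above 1 CPM in 3 or more libraries (12650) entered limma 3.58.1 in R 4.3.3 (lmFit, eBayes with trend) as log2(CPM + 1), and all 4 genotypes were fitted together. P-values were two-sided and adjusted by Benjamini-Hochberg over all genes tested. Genes were called at an adjusted p below 0.05, and changes of at least 2-fold were counted separately. The test was chosen because the authors' edgeR test needs counts, and edgeR 4.0.16 and DESeq2 1.42.0 on the recovered reads were alternatives. Other alternatives were pseudocounts of 0.5 and 0.1, no filter, scaling to library totals, a replicate block, fits of the 2 genotypes compared, fits without 1 library, and chromosome medians subtracted. The fits without CGN-KO replicate 1 and either CGNL1-KO replicate 1 or 2 were chosen after seeing the data.

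The members and lists were chosen with earlier results of these data known, and EPAS1 for its rise in CGN-KO cells. Named genes were the members, up to 2 rises and 2 falls per list and contrast with WT, 5 genes most like and 5 most opposite to EPAS1, its 5 listed neighbours on each side, and CGN and CGNL1. Of these, 1 target credited mainly to HIF-2 and 1 neighbour are not reported here, and the counts leave them out. Gene order came from RefSeq (UU_Cfam_GSD_1.0, another build, so no coordinates are given), which matched 11748 of the 12650 genes (92.9%). Between the single KO lines, libraries with the same number deviated together from their genotype means across genes (correlations of 0.632, 0.475, and 0.179 for replicates 1, 2, and 3). The correlation was weakest for replicate 3. Libraries of different numbers were not compared in this way, so whether the numbers pair these 2 genotypes was not tested. On simulated data for CGN-KO against WT, limma, edgeR, and DESeq2 each recovered 200 of 200 changed genes among 12650, with 0 false calls. Recovery of differences as small as most of those called here was not tested. Plots were drawn with matplotlib 3.10.9.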

Additional observations from a re-analysis of the deposited data

Results flagged for a closer look

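Differences between KO lines passed the test for several genes, with values on the log2(CPM + 1) scale and limma's adjusted p. Among the oxygen-sensing genes, EPAS1 was higher in double-KO than in CGNL1-KO cells (0.51, adjusted p = 0.00174). EGLN2 was higher in double-KO than in CGN-KO (0.32, adjusted p = 0.00235) and CGNL1-KO cells (0.46, adjusted p = 5.38e-05).

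Between CGN-KO and CGNL1-KO cells, CYBRD1 (0.64, adjusted p = 0.000361), ARNT2 (0.31, adjusted p = 0.0482), and AHR (0.29, adjusted p = 0.0215) were higher in CGN-KO cells, and CA12 was lower (−0.60, adjusted p = 0.00359). Against CGN-KO cells, double-KO cells had lower CXCR4 (−1.17, adjusted p = 0.000526), MMP14 (−0.60, adjusted p = 0.00178), SLC16A3 (−0.56, adjusted p = 0.0235), and CYBRD1 (−0.33, adjusted p = 0.0329).

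Against CGNL1-KO cells, double-KO cells had higher CA9 (0.51, adjusted p = 0.0319), CYBRD1 (0.31, adjusted p = 0.0309), and AHR (0.23, adjusted p = 0.0348). They had lower CXCR4 (−0.99, adjusted p = 0.00102), DDIT4 (−0.90, adjusted p = 0.0226), CA12 (−0.76, adjusted p = 0.000259), SLC16A3 (−0.70, adjusted p = 0.00372), STC2 (−0.60, adjusted p = 0.00696), and MMP14 (−0.51, adjusted p = 0.00331). Of these differences in the list genes, those of CA12, CXCR4, MMP14, and STC2, CYBRD1 between CGN-KO and CGNL1-KO cells, and SLC16A3 between double-KO and CGNL1-KO cells passed in every alternative that gave a value. The others missed the threshold in at least 1 alternative.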

How the results depend on the processing

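EPAS1 kept its direction and, in double-KO against CGNL1-KO cells, its call in every alternative run. With the replicate block, 2 oxygen-sensing genes were called in CGN-KO against WT cells in place of 1, as EGLN1 passed (adjusted p = 0.0484), and 12 in place of 7 pathway list genes in CGN-KO against CGNL1-KO cells, where the block took the shared targets from 2 to 5 and the calls over all genes from 656 to 1152. The block changed no other count of oxygen-sensing genes, of all pathway list genes, or of shared targets by over 1.5 times. By the correlation check, WT replicates 1 and 2 deviated together with the single KO libraries of the same number (0.318 to 0.373). WT replicate 3 did not (−0.082 with CGN-KO and 0.011 with CGNL1-KO). Double-KO libraries did not deviate together with those of the same number in the other genotypes (−0.235 to 0.086). With chromosome medians subtracted, the count was 2 in CGN-KO against WT (VHL passed) and 0 in double-KO against CGN-KO cells, and EGLN1 in double-KO against WT cells turned to 0.0224. With only the 2 genotypes compared, and so fewer libraries in the fit, the count in CGNL1-KO cells went to 0, the pathway list genes to 8, and those of CGN-KO against CGNL1-KO to 2. Without CGN-KO replicate 1 and either CGNL1-KO replicate 1 or 2 (both chosen after seeing the data), the CGN-KO count was 2. With CGNL1-KO replicate 1 as the second library left out, the pathway list genes in CGNL1-KO against WT cells numbered 20, and VHL in CGNL1-KO cells turned to 0.0128.

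Leaving out 1 library gave 1 to 2 oxygen-sensing genes for CGN-KO against WT and 0 to 1 for CGNL1-KO against WT. Pathway list genes numbered 7 to 14 in CGNL1-KO against WT, 2 to 10 in CGN-KO against CGNL1-KO, 4 to 9 in double-KO against CGN-KO, and 7 to 17 in double-KO against CGNL1-KO cells. Small differences changed sign for EGLN3 in CGN-KO (−0.165 to 0.0512), VHL (−0.0621 to 0.0196) and HIF1AN (−0.0226 to 0.117) in CGNL1-KO, and EGLN1 in double-KO cells (−0.0366 to 0.0191). Over all genes, 2-fold calls with limma, edgeR, and DESeq2 against WT were 166, 309, and 305 for CGN-KO, 78, 157, and 157 for CGNL1-KO, and 178, 328, and 326 for double-KO cells, and in this order of lines 292, 149, and 315 with a pseudocount of 0.1. Genes near 1 CPM, such as CXCR4 and CA9, rest on few reads, and the log scale limits their differences.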
